A study of Astyanax mexicanus with 6 samples.

Results

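The genes described are the splicing factor and hnRNP genes of the Mexican tetra, *Astyanax mexicanus*. They are the rows of the expression tables whose gene name starts, in either case, with srsf, snrp, sf3a, sf3b, hnrnp, prpf, u2af, ptbp, rbfox, esrp, mbnl or celf. The rule took 90 of the 27420 genes listed, 18877 of which carry a name. Of these members, 73 belong to families at work in every cell (snrp, sf3a and sf3b, u2af, prpf, srsf, hnrnp and ptbp, here called general) and 17 to families biased to particular tissues (rbfox, esrp, mbnl and celf). The rule used names only and no measured value. The study asked about DNA damage and its repair in surface fish and in cave-living Pachón cavefish, which sleep little. Its fibroblast libraries are untreated RNA samples of the embryonic fibroblast line of surface fish (SEF) and that of Pachón cavefish (PEF), with 3 libraries of each line. The labels give both lines as wild type, and both were grown at 28 °C without CO2. Each line was raised from pooled embryos, isolated as a clone and kept for many passages, so that the population of origin, the clone and the time in culture cannot be told apart. The libraries of a line are replicates of that line, and a p-value between SEF and PEF measures the difference against the spread between libraries of the same line.

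Introns are removed from new transcripts by the spliceosome, which is built from small nuclear ribonucleoproteins (snRNPs). Each snRNP carries a ring of Sm proteins around its RNA, and the U2 snRNP with its SF3A and SF3B parts and the U2AF proteins recognizes the branch point and the end of the intron. SR proteins bind exons and favor their use, while heterogeneous nuclear ribonucleoproteins (hnRNPs) and the related polypyrimidine tract binding (PTB) proteins often oppose it. On this shared machinery act regulators that are made mostly in some tissues. RBFOX and CELF proteins are best known from neurons and muscle, MBNL proteins from the splicing changes of differentiating muscle, and ESRP proteins from epithelia, where they keep epithelial isoforms that fibroblasts lack.

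Reads counted on genes numbered between 33381563 and 39156850 in the SEF libraries and between 36790663 and 42506026 in the PEF libraries. Levels are given as TPM, transcript abundances set to the same total in each library, which are scaled by gene length and can be compared between genes, and changes as log2 fold changes of the read counts, PEF over SEF, with their standard error. A gene is called where the adjusted p of the edgeR quasi-likelihood test, with Benjamini-Hochberg adjustment over 16670 genes, was under 0.05. Of 13 fibroblast markers found by name, 12 reached a mean of 1 TPM in SEF and 13 in PEF. Of 9 epithelial markers found, only *krt4* reached that level in either line, at a mean of 915 TPM in SEF and 778 TPM in PEF. With it, the epithelial markers summed to between 700 and 1033 TPM in SEF and between 331 and 1485 TPM in PEF. Markers of muscle summed to between 307 and 546 TPM in SEF and between 51.8 and 69.9 TPM in PEF, and markers of neural cells to between 12.4 and 30.9 TPM in SEF and between 5.61 and 5.91 TPM in PEF. The neural markers *elavl4*, *sox2* and *sox10* had no read in any library. The endothelial marker *kdrl* was lower in PEF (log2 fold change −2.28, edgeR adjusted p = 0.000425), while *cdh5* had no read. In bulk RNA, fewer cells of a type and less RNA per cell cannot be told apart.

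Of the 90 members, 83 had enough reads to be tested. These were 72 of the 73 general and 11 of the 17 tissue-biased genes. Among the 83, 55 were called (66.3%), against 63.5% of all genes tested, so that the share of members called was near that of any gene. The direction was uneven. Of the members, 45 were higher in PEF (54.2%) and 10 lower, while of all genes tested 30.4% were higher and 33.1% lower. Most members are abundant, and among genes with a mean of at least 10 TPM the background was 34.2% higher and 29.3% lower. When the test was run with limma on log2(TPM + 1) instead, the members split into 29 higher and 12 lower. Over all 14593 genes tested that way, 4108 were higher and 4971 lower. On library-scaled counts, all libraries of one line lay above all of the other for 64 members (77.1%), against 70.8% of all genes tested. The median log2 fold change of the tested members was 0.30, beside −0.02 over all genes tested.

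**Figure D1:**
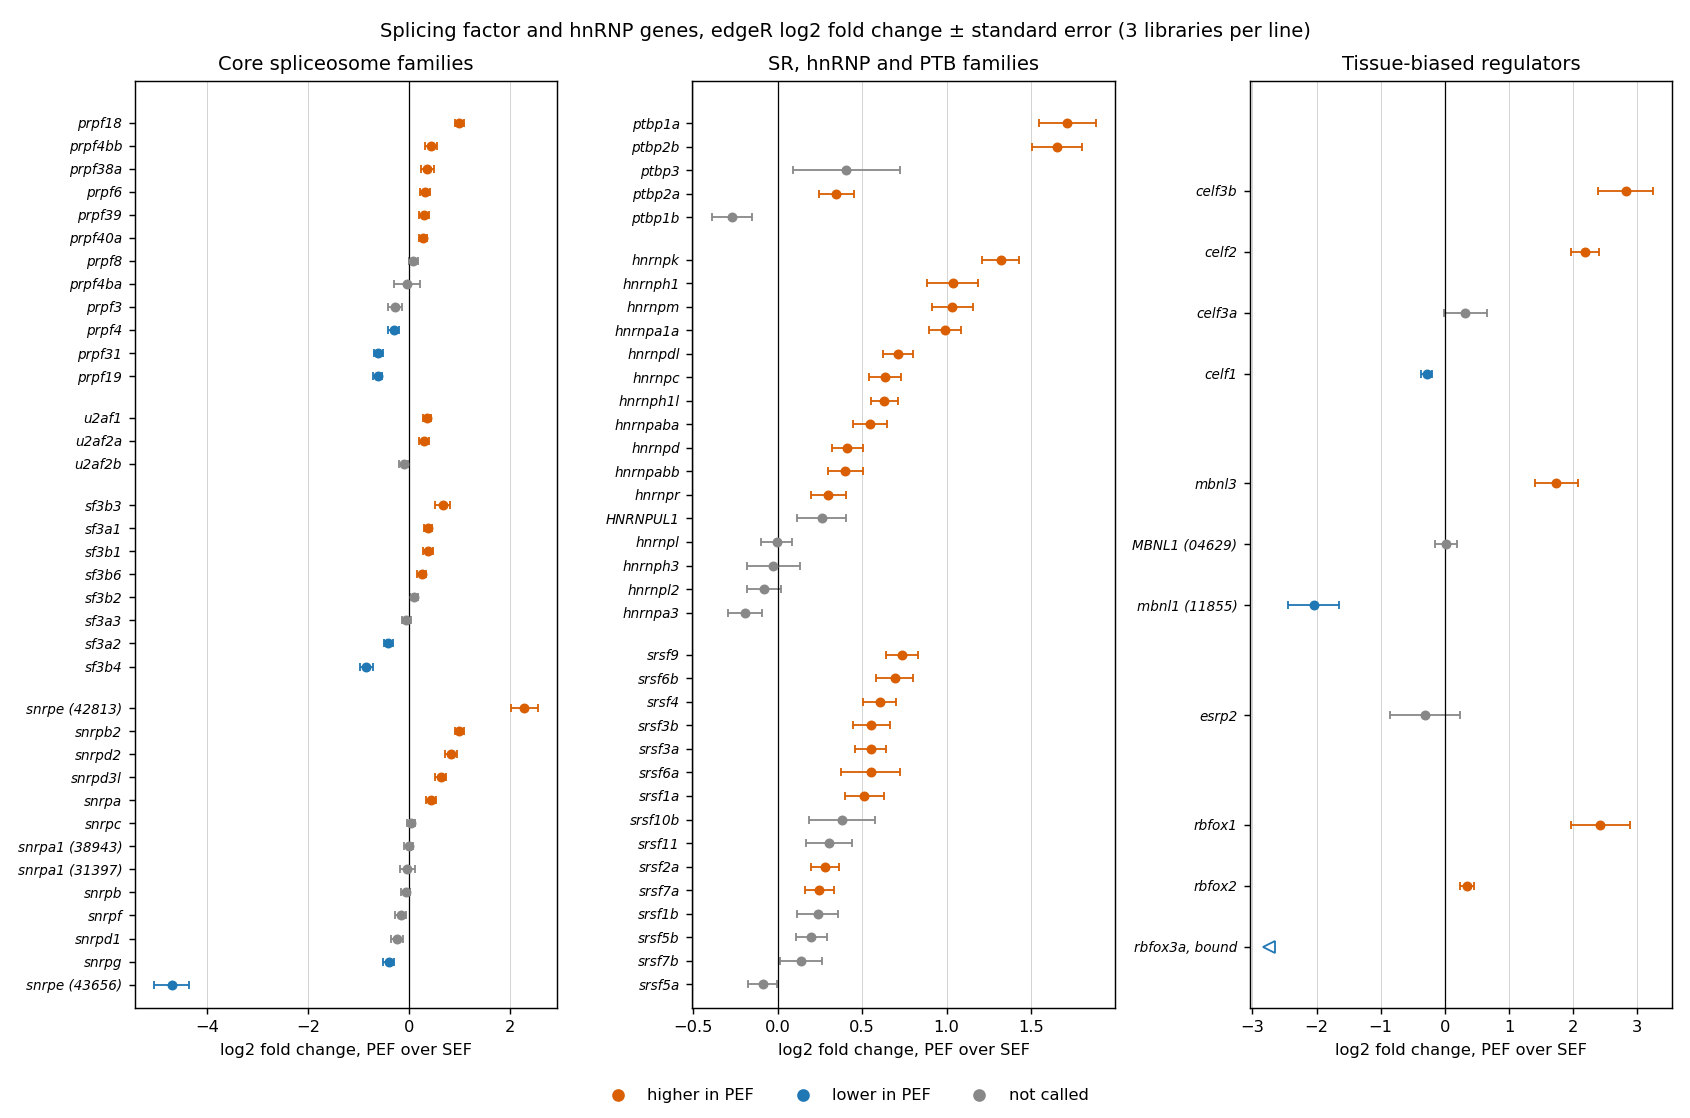
Log2 fold change of read counts, PEF over SEF (horizontal axis), of the 83 tested members by family, with bars for ± 1 standard error from 3 libraries of each line. Orange points were higher in PEF, blue points lower and grey points not called. *rbfox3a* is drawn as an open arrowhead at its bound, since it had no read in PEF. The panels have different horizontal scales. Most hnrnp, srsf and ptbp genes lie to the right of 0, the snrp, sf3 and prpf genes lie on both sides, and the widest changes are among the tissue-biased genes and the paired *snrpe* rows.

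Genes of the snRNP core moved in both directions. Of 13 snrp rows, 7 were called, 5 higher in PEF and 2 lower, with a median log2 fold change of −0.01. The calls in each direction include a row of *snrpe*, whose level is uncertain, as described below. Apart from *snrpe*, the only lower call was that of *snrpg*, and it was lost without SEF replicate 2 or PEF replicate 2. *snrpb2* (ENSAMXG00000037263), which codes for the U2B″ protein of the U2 snRNP, measured 33.2, 33.4 and 30.2 TPM in SEF and 63.5, 56.9 and 59.9 TPM in PEF. All PEF libraries lay above all SEF libraries, and the log2 fold change was 0.99 ± 0.08 (edgeR adjusted p = 6.39e-05). *snrpd2*, a protein of the Sm ring, measured 74.7, 80.5 and 67.3 TPM in SEF and 107, 117 and 127 TPM in PEF, again without overlap, with a change of 0.83 ± 0.12 on the log2 scale (edgeR adjusted p = 0.000826). *snrpg*, another protein of the same ring, measured 60.5, 76.4 and 72.2 TPM in SEF and 48.9, 46.6 and 51.8 TPM in PEF and changed the other way, by −0.41 ± 0.11 on the log2 scale (edgeR adjusted p = 0.0166, and up to 0.0628 when SEF replicate 2 or PEF replicate 2 was left out). *snrpf*, the Sm gene with the highest TPM of the family, measured 138, 141 and 152 TPM in SEF and 119, 119 and 137 TPM in PEF and was not called (edgeR adjusted p = 0.215). *snrpb*, *snrpd1*, *snrpc* of the U1 snRNP and both *snrpa1* rows of the U2 snRNP were not called either, with log2 fold changes from −0.24 to 0.03. Of these, *snrpd1* passed as lower in 3 of 15 alternatives. It measured 59.7, 70.9 and 59.0 TPM in SEF and 47.7, 47.7 and 54.0 TPM in PEF, without overlap. Proteins that stand together in one ring thus had RNA levels that were higher, not called or, for *snrpg*, lower by a call that depended on single libraries.

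*snrpe*, a further gene of the Sm ring, has 2 rows in the files with the same name. The row ENSAMXG00000043656 had 178, 272 and 225 reads in SEF and 13, 7 and 5 reads in PEF, and the row ENSAMXG00000042813 had 32, 81 and 61 reads in SEF and 271, 265 and 291 reads in PEF. By reads, the first row was lower in PEF and the second higher, with log2 fold changes of −4.71 and 2.28 (edgeR adjusted p = 3.49e-05 and 0.000297), and the reads of both rows together changed by 0.03 on the log2 scale. The TPM gave another account. The first row measured 96.1, 94.2 and 83.7 TPM in SEF and 35.2, 38.9 and 34.4 TPM in PEF, and the second 0.93, 1.70 and 1.45 TPM in SEF and 12.3, 11.9 and 13.2 TPM in PEF. Of the summed reads the first row took 80.2% ± 4.06 in SEF and 2.95% ± 1.48 in PEF (SD, n = 3 libraries), and of the summed TPM 98.5% ± 0.452 in SEF and 74.3% ± 2.22 in PEF (SD, n = 3 libraries). The summed TPM was lower in PEF by 0.93 on the log2 scale where the summed reads were not. Reads that map to several places stand in a row of their own beside the counts, while RSEM shares such reads among genes by estimate. Whether this sets the difference was not tested, and the level of either row, and of *snrpe* as a whole, is uncertain. Without both rows, 45 of 70 general members were called, 39 higher in PEF and 6 lower. Counts and TPM differed by more than 0.5 in log2 fold change for these 2 rows alone among the 82 members with both values. A smaller offset was general, with log2 fold changes by counts above those by TPM by a median of 0.097. The median log2 fold change of the tested members by counts was 0.30. For 4 members, none of them called, the sign differed between counts and TPM.

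The SF3 proteins clamp the branch point within the U2 snRNP. Of 8 sf3a and sf3b genes, 6 were called, 4 higher in PEF and 2 lower. *sf3b4* (ENSAMXG00000008282) measured 66.4, 83.5 and 69.3 TPM in SEF and 35.7, 36.4 and 41.2 TPM in PEF, lower in every PEF library, with a change of −0.85 ± 0.12 on the log2 scale (edgeR adjusted p = 0.000836). *sf3a2* was lower as well, at 19.3, 20.9 and 17.8 TPM in SEF and 14.1, 12.2 and 14.4 TPM in PEF (log2 fold change −0.41 ± 0.09, edgeR adjusted p = 0.00660). *sf3b3* measured 35.3, 37.7 and 25.7 TPM in SEF and 45.5, 44.8 and 48.5 TPM in PEF and changed by 0.66 ± 0.15 on the log2 scale in the other direction (edgeR adjusted p = 0.00563). *sf3b1*, the subunit that holds the branch point and the family's most abundant gene by TPM, measured 77.8, 76.9 and 69.6 TPM in SEF and 101, 87.0 and 85.6 TPM in PEF, with no overlap and a change of 0.37 ± 0.10 on the log2 scale (edgeR adjusted p = 0.0115). The summed TPM of the family overlapped between the lines, at 423, 441 and 400.3 TPM in SEF and 437, 395 and 415 TPM in PEF. Of the U2AF genes, *u2af1*, which reads the end of the intron, was higher in PEF (log2 fold change 0.35 ± 0.08, edgeR adjusted p = 0.00647), a call lost with limma on log2(TPM + 1) (log2 fold change 0.21, limma adjusted p = 0.0829). So was *u2af2a* (log2 fold change 0.30 ± 0.09, edgeR adjusted p = 0.0248), although the TPM of *u2af2a* overlapped between the lines and its call passed in 5 of 15 alternatives (edgeR adjusted p up to 0.0852 with 1 library left out). The duplicate *u2af2b*, the more abundant of the pair by TPM, measured 43.6, 40.2 and 41.0 TPM in SEF and 36.1, 34.3 and 35.7 TPM in PEF. By edgeR *u2af2b* was not called, but limma on log2(TPM + 1) called it lower in PEF (log2 fold change −0.23, limma adjusted p = 0.0444), as did the other limma alternatives.

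The prpf genes code for proteins that join the U4/U6.U5 tri-snRNP or act in the steps that activate the spliceosome. Of 12 genes, 9 were called, 6 higher in PEF and 3 lower. *prpf18* (ENSAMXG00000012848), which acts in the second catalytic step, measured 16.6, 15.7 and 15.3 TPM in SEF and 31.2, 29.0 and 29.9 TPM in PEF. All PEF libraries lay well above all SEF libraries, and the log2 fold change was 0.996 ± 0.0846 (edgeR adjusted p = 6.44e-05). *prpf19*, the ubiquitin ligase that gives the Prp19 complex its name, measured 47.1, 48.2 and 43.6 TPM in SEF and 35.1, 25.3 and 27.7 TPM in PEF and was lower, with a change of −0.62 ± 0.09 on the log2 scale (edgeR adjusted p = 0.000787). *prpf31* of the U4/U6 snRNP was lower by a like amount, at 61.0, 59.2 and 62.3 TPM in SEF and 42.0, 35.9 and 35.4 TPM in PEF (log2 fold change −0.61 ± 0.09, edgeR adjusted p = 0.000867). *prpf39*, a U1-associated factor with the highest TPM of the family, measured 73.8, 73.7 and 70.5 TPM in SEF and 78.8, 84.3 and 81.6 TPM in PEF. Its log2 fold change of 0.29 ± 0.10 (edgeR adjusted p = 0.0311) passed in 4 of 15 alternatives and was lost without any 1 of the SEF libraries, PEF replicate 2 or PEF replicate 3. *prpf8*, the large protein at the catalytic center, was not called at 22.1, 24.2 and 20.8 TPM in SEF and 23.3, 20.5 and 21.7 TPM in PEF (log2 fold change 0.08 ± 0.09, edgeR adjusted p = 0.439). The summed TPM of the prpf genes overlapped, at 333, 333 and 318 TPM in SEF and 324, 305 and 311 TPM in PEF.

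The SR protein genes that were called all went one way. Of 15 srsf genes, 9 were higher in PEF and 0 lower by edgeR, with 0 lower at an unadjusted p under 0.05 and 0 by DESeq2, and 14 of 15 log2 fold changes were above 0, with a median of 0.38. *srsf9* (ENSAMXG00000032281) measured 43.3, 43.5 and 43.7 TPM in SEF and 71.5, 61.0 and 64.5 TPM in PEF, with a change of 0.73 ± 0.10 on the log2 scale (edgeR adjusted p = 0.000469). *srsf6b* measured 138, 139.9 and 131 TPM in SEF and 190.5, 216 and 228 TPM in PEF (log2 fold change 0.69 ± 0.11, edgeR adjusted p = 0.00131). *srsf4*, the SR gene with the highest TPM, measured 252, 222 and 241 TPM in SEF and 336, 333 and 340.1 TPM in PEF (log2 fold change 0.60 ± 0.10, edgeR adjusted p = 0.00142). In each of these genes the lowest PEF library was above the highest SEF library. The duplicates *srsf3a* and *srsf3b* changed alike, by 0.55 ± 0.09 and 0.55 ± 0.11 on the log2 scale (edgeR adjusted p = 0.00160 and 0.00329). Of the *srsf5* duplicates, which are also among the abundant SR genes, neither was called, and *srsf5a* measured 145, 129 and 118 TPM in SEF and 138, 129 and 119.6 TPM in PEF. Summed over the family, srsf RNA was 1247, 1171 and 1150.5 TPM in SEF and 1552, 1482 and 1538 TPM in PEF, without overlap. *srsf7a*, though called (log2 fold change 0.25 ± 0.09, edgeR adjusted p = 0.0382), passed in 2 of 15 alternatives (edgeR adjusted p up to 0.153 with 1 library left out), and *srsf7b* was not called (log2 fold change 0.14 ± 0.13).

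The hnRNP genes had the largest median change of the general families. Of 16 tested hnrnp genes, 11 were higher in PEF and 0 lower by edgeR, with 0 lower at an unadjusted p under 0.05 and 0 by DESeq2, and with a median log2 fold change of 0.48. *hnrnpk* (ENSAMXG00000011326), which binds C-rich RNA, measured 19.4, 19.2 and 16.1 TPM in SEF and 40.1, 39.6 and 44.1 TPM in PEF. The lowest PEF library was more than 2-fold above the highest SEF library, and PEF was 2.50-fold higher by reads (log2 fold change 1.32 ± 0.11, edgeR adjusted p = 6.13e-05). *hnrnpm* measured 110.2, 97.8 and 80.4 TPM in SEF and 183, 180.5 and 189 TPM in PEF (log2 fold change 1.03 ± 0.12, edgeR adjusted p = 0.000295), and *hnrnph1*, which binds G-rich RNA, 38.4, 29.4 and 25.1 TPM in SEF and 60.5, 58.9 and 59.0 TPM in PEF (1.04 ± 0.15, edgeR adjusted p = 0.000795). *hnrnpa1a*, a frequent opponent of SR proteins, measured 329, 301 and 279 TPM in SEF and 561, 509.6 and 525 TPM in PEF (log2 fold change 0.99 ± 0.10, edgeR adjusted p = 0.000116). None of these genes overlapped between the lines. *hnrnpaba*, the member with the highest TPM of all 90, measured 499, 454 and 445 TPM in SEF and 709.8, 593 and 627 TPM in PEF (log2 fold change 0.55 ± 0.10, edgeR adjusted p = 0.00239). Genes for hnRNP C, D, DL and R and for the duplicates *hnrnpabb* and *hnrnph1l* were also higher, by 0.30 to 0.71 on the log2 scale. Of these, the call of *hnrnpr*, whose TPM overlapped between the lines, was lost without any 1 of the SEF libraries or PEF replicate 3 (edgeR adjusted p up to 0.143) and with limma on log2(TPM + 1) (limma adjusted p = 0.243), and that of *hnrnpabb* without SEF replicate 2 (edgeR adjusted p = 0.0548). *hnrnpl* and *hnrnpl2*, which bind CA repeats, were not called at log2 fold changes of −0.01 ± 0.09 and −0.08 ± 0.10, nor were *hnrnpa3*, *hnrnph3* and *HNRNPUL1*. *HNRNPLL*, related to hnRNP L and best known from lymphocytes, had 13, 5 and 7 reads in SEF and 1, 8 and 2 reads in PEF and was not tested. Summed over the family, hnrnp RNA was 1896, 1759 and 1695 TPM in SEF and 2695, 2411 and 2537 TPM in PEF, so that the lowest PEF library lay above the highest SEF library.

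**Figure D2:**
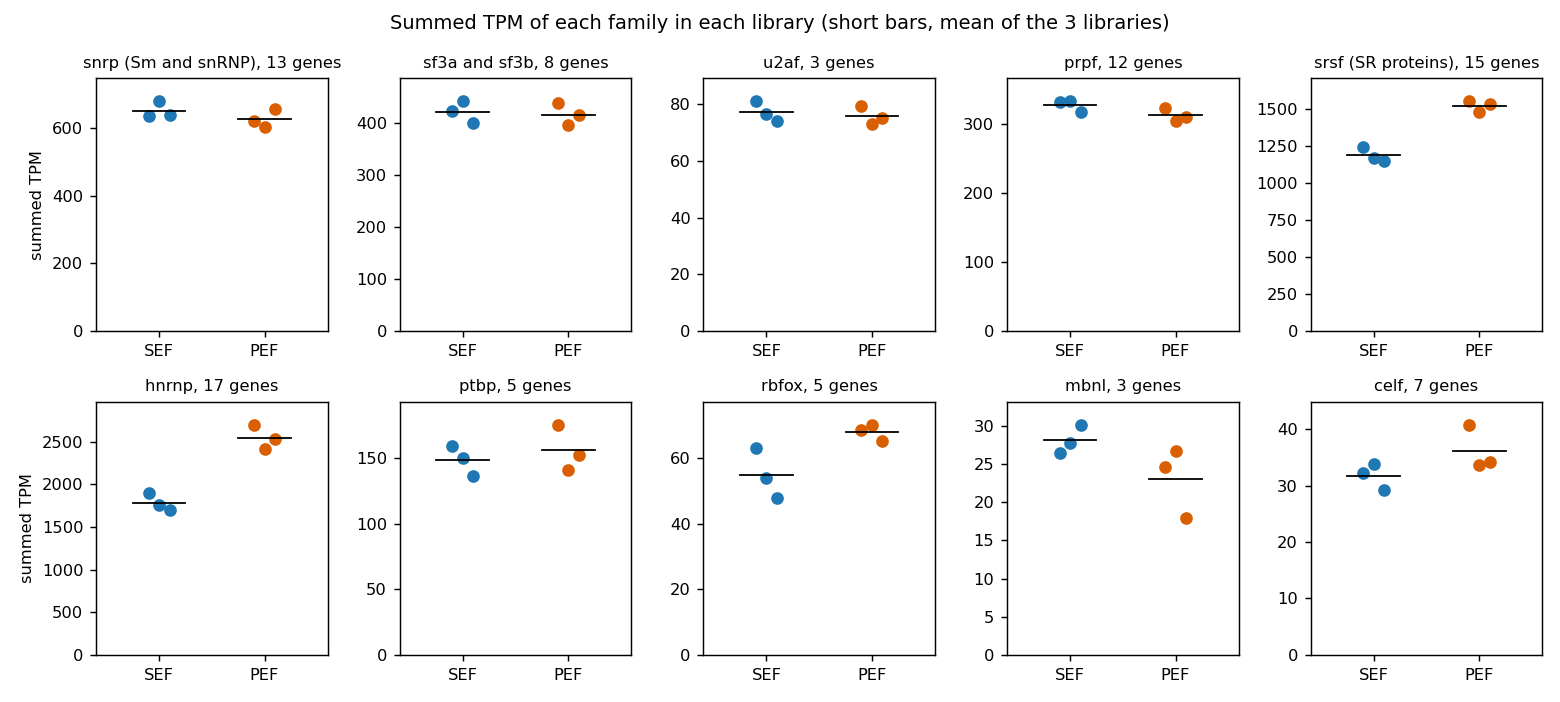
Summed TPM (vertical axes, each from 0) of each family except esrp in the 3 SEF and the 3 PEF libraries, with a short bar at the mean of each line. The lines are apart for srsf, at 1151 to 1247 against 1482 to 1552 TPM, for hnrnp, at 1695 to 1896 against 2411 to 2695 TPM, and for rbfox, at 47.9 to 63.2 against 65.2 to 70.1 TPM. They overlap for snrp, sf3, u2af, prpf, ptbp, mbnl and celf.

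PTB proteins bind pyrimidine tracts and, in mammals, PTBP1 holds back neuronal exons in other cells while PTBP2 replaces it in developing neurons. Of 5 ptbp genes, 3 were higher in PEF and 0 lower by edgeR, with 0 lower at an unadjusted p under 0.05 and 1, *ptbp1b*, by DESeq2. *ptbp1b*, the most abundant by TPM, measured 116, 105 and 96.6 TPM in SEF and 99.0, 72.3 and 84.5 TPM in PEF and was not called (log2 fold change −0.27 ± 0.12, edgeR adjusted p = 0.0841), although it passed as lower in 3 of 15 alternatives. Its duplicate *ptbp1a* (ENSAMXG00000006285) measured 3.83, 3.33 and 4.21 TPM in SEF and 10.3, 13.2 and 10.8 TPM in PEF, far below *ptbp1b*, and was 3.28-fold higher in PEF by reads (log2 fold change 1.72 ± 0.17, edgeR adjusted p = 0.000121). *ptbp2b* (ENSAMXG00000000378) measured 7.30, 6.78 and 4.97 TPM in SEF and 17.6, 20.2 and 20.9 TPM in PEF and was 3.15-fold higher (log2 fold change 1.65 ± 0.15, edgeR adjusted p = 8.81e-05). Both genes had all PEF libraries well above all SEF libraries. *ptbp2a* measured 30.6, 33.1 and 28.9 TPM in SEF and 45.9, 34.3 and 34.7 TPM in PEF, with a change of 0.35 ± 0.10 on the log2 scale (edgeR adjusted p = 0.0222) that passed in 6 of 15 alternatives and failed without any 1 of the SEF libraries (edgeR adjusted p up to 0.0731). *ptbp3*, at 1.45, 0.98 and 1.75 TPM in SEF and 2.22, 1.18 and 1.58 TPM in PEF, was not called (log2 fold change 0.41 ± 0.32).

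Among the tissue-biased regulators, 8 of 11 tested genes were called, 5 higher in PEF and 3 lower. Of all genes under 10 TPM, where most of this class lies, 63.4% were called. With a filter of 10 reads in every library, or with limma on log2(TPM + 1), the calls were 1 higher and 2 lower. Over all genes, that filter gave 3952 higher and 3748 lower of 13388, and limma 4108 and 4971 of 14593. With no filter on counts, 5 regulators were higher and 5 lower, beside 5374 and 6434 of all 23769 genes. The summed muscle and neural markers were lower in PEF, carried by *acta1b* and *tnnt3b* and by *gfap*, while *ryr1b* of the muscle list and *snap25a* of the neural list were higher (log2 fold changes 1.93 and 0.99, edgeR adjusted p = 0.0301 and 0.0185). Their part in the levels of these regulators was not tested. Of the rbfox genes, *rbfox2* (ENSAMXG00000011451), the paralog made broadly in mammals, was the most abundant regulator of this class, at 62.2, 53.1 and 47.0 TPM in SEF and 66.8, 69.2 and 63.9 TPM in PEF. No PEF library was below any SEF library. Its log2 fold change of 0.35 ± 0.11 (edgeR adjusted p = 0.0299) passed in 5 of 15 alternatives (edgeR adjusted p up to 0.113 with 1 library left out). *rbfox1*, best known from neurons and muscle, was low, at 0.06, 0.44 and 0.20 TPM in SEF and 1.93, 0.94 and 1.25 TPM in PEF, with 2, 10 and 7 reads in SEF and 35, 25 and 41 reads in PEF. Its libraries did not overlap, and the log2 fold change was 2.42 ± 0.46 (edgeR adjusted p = 0.00299). *rbfox3a*, the fish counterpart of the neuronal marker NeuN, went the other way with 20, 19 and 21 reads in SEF and 0, 0 and 0 reads in PEF, at least 6.66-fold lower in PEF when a count of 0 is taken to allow 3 reads in each library (edgeR adjusted p = 0.000458). Its duplicate *rbfox3b*, with 5, 6 and 2 reads in SEF and 0, 1 and 0 reads in PEF, and *rbfox1l*, with 0, 0 and 2 reads in SEF and 0, 0 and 0 reads in PEF, had too few reads to be tested. Summed rbfox RNA, nearly all of it from *rbfox2*, was 63.2, 54.0 and 47.9 TPM in SEF and 68.7, 70.1 and 65.2 TPM in PEF.

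Of the mbnl genes, the row *MBNL1* (ENSAMXG00000004629) measured 22.2, 23.5 and 21.6 TPM in SEF and 22.5, 24.6 and 16.5 TPM in PEF and was not called (log2 fold change 0.02 ± 0.17, edgeR adjusted p = 0.924). A further row named *mbnl1* (ENSAMXG00000011855) measured 3.88, 4.03 and 8.29 TPM in SEF and 1.40, 1.07 and 0.70 TPM in PEF. Its SEF libraries were uneven, with replicate 3 well above the others, but all lay above the PEF libraries, and PEF was 4.11-fold lower by reads (log2 fold change −2.04 ± 0.40, edgeR adjusted p = 0.00323). *mbnl3*, which in mammals opposes muscle differentiation, was low, at 0.32, 0.19 and 0.19 TPM in SEF and 0.68, 1.0 and 0.71 TPM in PEF, and higher in PEF (log2 fold change 1.74 ± 0.33, edgeR adjusted p = 0.00292). The 3 mbnl genes thus gave 3 answers, that of *mbnl3* on few reads. The summed level, 26.4, 27.7 and 30.1 TPM in SEF and 24.5, 26.7 and 17.9 TPM in PEF, overlapped between the lines.

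Of the celf genes, *celf2* (ENSAMXG00000005933) measured 4.13, 3.23 and 2.32 TPM in SEF and 16.5, 12.9 and 11.8 TPM in PEF. It was the only tissue-biased member above 10 TPM in every library of one line and below 5 TPM in every library of the other, and PEF was 4.55-fold higher by reads (log2 fold change 2.19 ± 0.22, edgeR adjusted p = 0.000146). *celf1*, the paralog made in most cells, measured 24.8, 28.5 and 25.4 TPM in SEF and 21.1, 18.0 and 19.1 TPM in PEF and was lower in PEF by a small amount (log2 fold change −0.28 ± 0.09, edgeR adjusted p = 0.0250), a call kept in 9 of 15 alternatives and lost without SEF replicate 2, PEF replicate 2 or PEF replicate 3 (edgeR adjusted p up to 0.106). *celf3b* had 1, 2 and 4 reads in SEF and 17, 16 and 18 reads in PEF and was higher in PEF (log2 fold change 2.82 ± 0.43, edgeR adjusted p = 0.00103), while its duplicate *celf3a*, with 69, 56 and 33 reads in SEF and 55, 73 and 72 reads in PEF, was not called (log2 fold change 0.32 ± 0.33, edgeR adjusted p = 0.419). CELF3 is known in mammals from the nervous system. *CELF6* had 4, 3 and 3 reads in SEF and 0, 0 and 0 reads in PEF, *celf4* had 9, 5 and 1 reads in SEF and 0, 2 and 0 reads in PEF and *celf5b* 1, 0 and 1 reads in SEF and 2, 1 and 0 reads in PEF, too few to be tested. The epithelial regulators were close to silent in both lines. *esrp1* had 6, 4 and 5 reads in SEF and 0, 0 and 0 reads in PEF, and *esrp2* had 10, 24 and 8 reads in SEF and 17, 10 and 6 reads in PEF (log2 fold change −0.31 ± 0.55, edgeR adjusted p = 0.642).

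**Figure D3:**
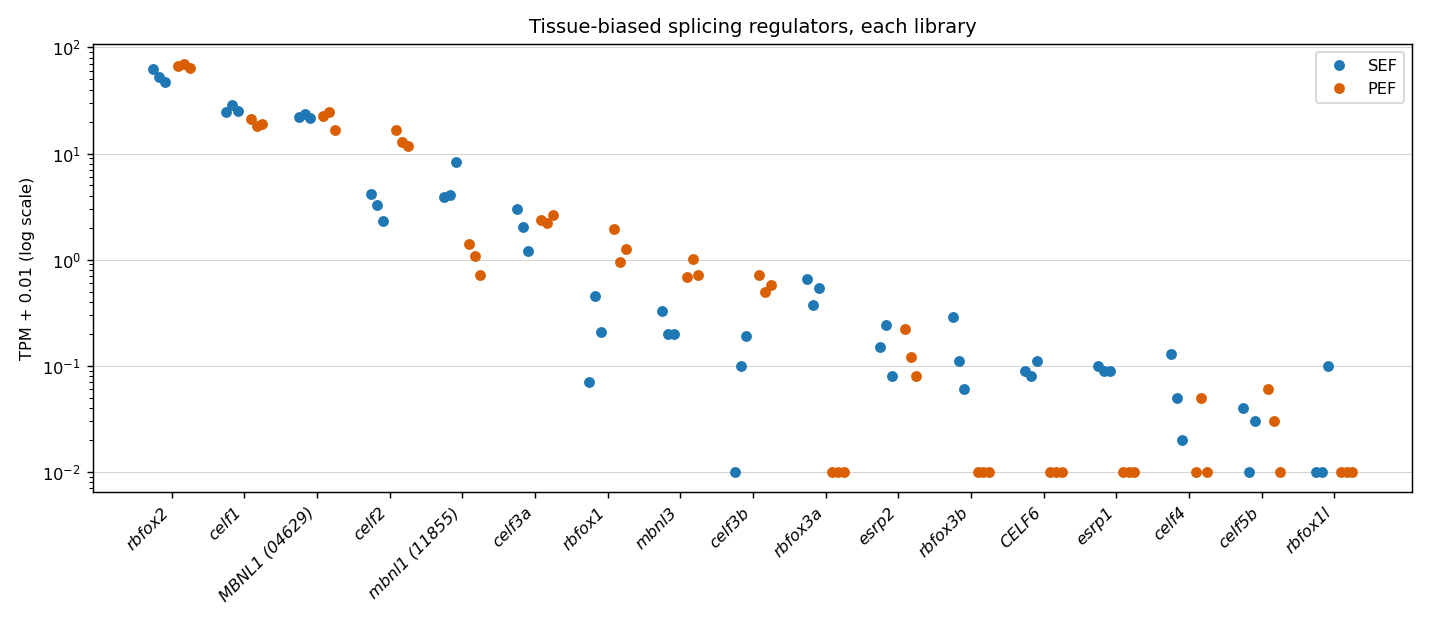
TPM + 0.01 on a log axis of the 17 tissue-biased regulators in each of the 3 SEF (blue) and 3 PEF (orange) libraries, ordered by mean TPM. Points at the bottom are libraries listed at 0 TPM. *rbfox2*, *celf1* and *MBNL1* have the highest levels in both lines, and *celf2* and *mbnl1* stand apart in opposite directions. *rbfox3a*, *rbfox3b*, *rbfox1l*, *esrp1* and *CELF6* are listed at 0 in all PEF libraries.

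The general and the tissue-biased members differed in level and in the size of their changes. The general members had a median of 44.1 TPM, and 66 of 73 reached a mean of 10 TPM, while the tissue-biased members had a median of 0.338 TPM, and 3 of 17 reached it. The median size of the log2 fold change, without its sign, was 0.37 for the general and 1.74 for the tissue-biased members tested, beside 0.77 over all genes tested. The value for the tissue-biased members is the same with *rbfox3a* at its bound. A change of over 1 was measured for 7 of 72 general members (9.72%) and 6 of 11 tissue-biased members (54.5%). Over all genes tested the share was 42.0%, with 31.0% of genes with at least 10 TPM and 50.6% of genes below. Size went with level over all genes too, with a median of 0.57 for genes with at least 10 TPM and 1.02 for genes below. The 3 tissue-biased members with at least 10 TPM, *rbfox2*, *MBNL1* and *celf1*, had log2 fold changes of 0.35, 0.02 and −0.28, within the range of the general members. The 8 below 10 TPM held every tissue-biased change of over 1. Among members under 10 TPM, the median size was 2.11 for these 8 and 0.39 for the 6 general members tested there. These sets were not matched in level, with a median of 0.659 TPM for the tissue-biased and 6.41 TPM for the general members. A gene with few reads can also pass the filter through the line where it is high, which favors large changes. The contrast therefore cannot be told apart from level and filter. No test of the difference between the classes was made. In a test against a change of 2-fold instead of none, 5 general and 6 tissue-biased members remained, beside 5103 of all 16670 genes tested. The general ones were *hnrnpk*, *ptbp1a*, *ptbp2b* and both *snrpe* rows, whose levels are uncertain. Of the tissue-biased ones, *rbfox1*, *rbfox3a*, *celf3b* and *mbnl3* had few reads and passed the read filter only through the line where they were high. They were not tested under the filter of 10 reads in every library.

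**Figure D4:**
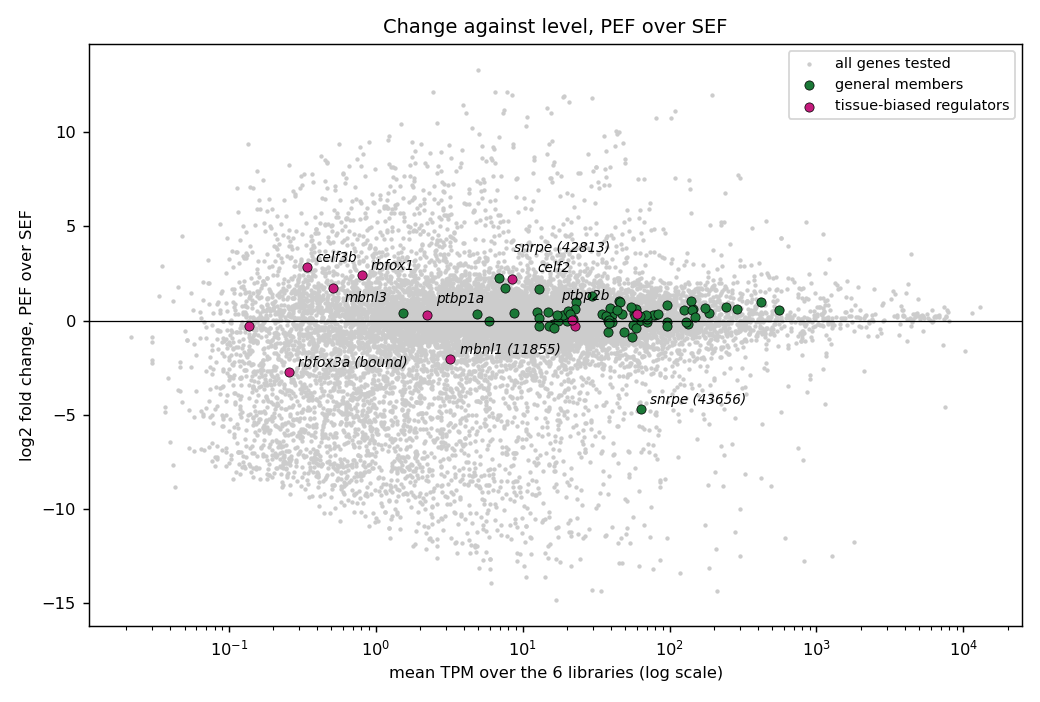
Log2 fold change of read counts, PEF over SEF (vertical axis), against mean TPM over the 6 libraries (log scale), for all genes tested (grey), the general members (green) and the tissue-biased members (pink). *rbfox3a* is drawn at its bound, and grey points of genes without reads in one line depend on the fit's prior count. Most general members lie near 0 at high TPM, with the *snrpe* rows far from 0 on either side, and the tissue-biased genes that changed most lie below 10 TPM.

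Teleost fish keep many duplicates from an ancient genome doubling. Many members exist as pairs, and such a pair can change its balance while its sum stays close. The b copy of *ptbp2* took 11.1% ± 1.48 in SEF and 23.8% ± 3.70 in PEF of the reads of the pair (SD, n = 3 libraries), and the pair's sum was higher by 0.57 on the log2 scale. The b copy of *ptbp1* took 98.4% ± 0.188 in SEF and 93.8% ± 1.59 in PEF (SD, n = 3 libraries), with the sum at −0.20. In both pairs the share of the minor copy was larger in PEF, without overlap. The b copy of *celf3* took 5.23% ± 4.94 in SEF and 20.5% ± 2.85 in PEF (SD, n = 3 libraries), on fewer than 100 reads per library, and the lower-case row of *mbnl1* 21.0% ± 8.67 in SEF and 6.12% ± 1.35 in PEF (SD, n = 3 libraries). For *u2af2* the b copy took 67.4% ± 1.69 in SEF and 61.1% ± 1.26 in PEF of the reads, without overlap, and for *srsf6* 73.3% ± 4.02 in SEF and 74.9% ± 3.99 in PEF (SD, n = 3 libraries). The *srsf6* shares overlapped between the lines while the sum of the pair was higher by 0.66 on the log2 scale. The call of *srsf6a* itself (log2 fold change 0.55 ± 0.17, edgeR adjusted p = 0.0268) was lost without SEF replicate 2 or 3 or PEF replicate 1 or 2 (edgeR adjusted p up to 0.0890), and its TPM overlapped between the lines. Reads that map to both of 2 near-identical copies are counted on neither, and the sources do not say whether strand was used in counting. The split within a pair is therefore uncertain. The sum can be uncertain too, as for *snrpe*, where it changed by 0.03 by reads and −0.93 by TPM on the log2 scale.

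**Figure D5:**
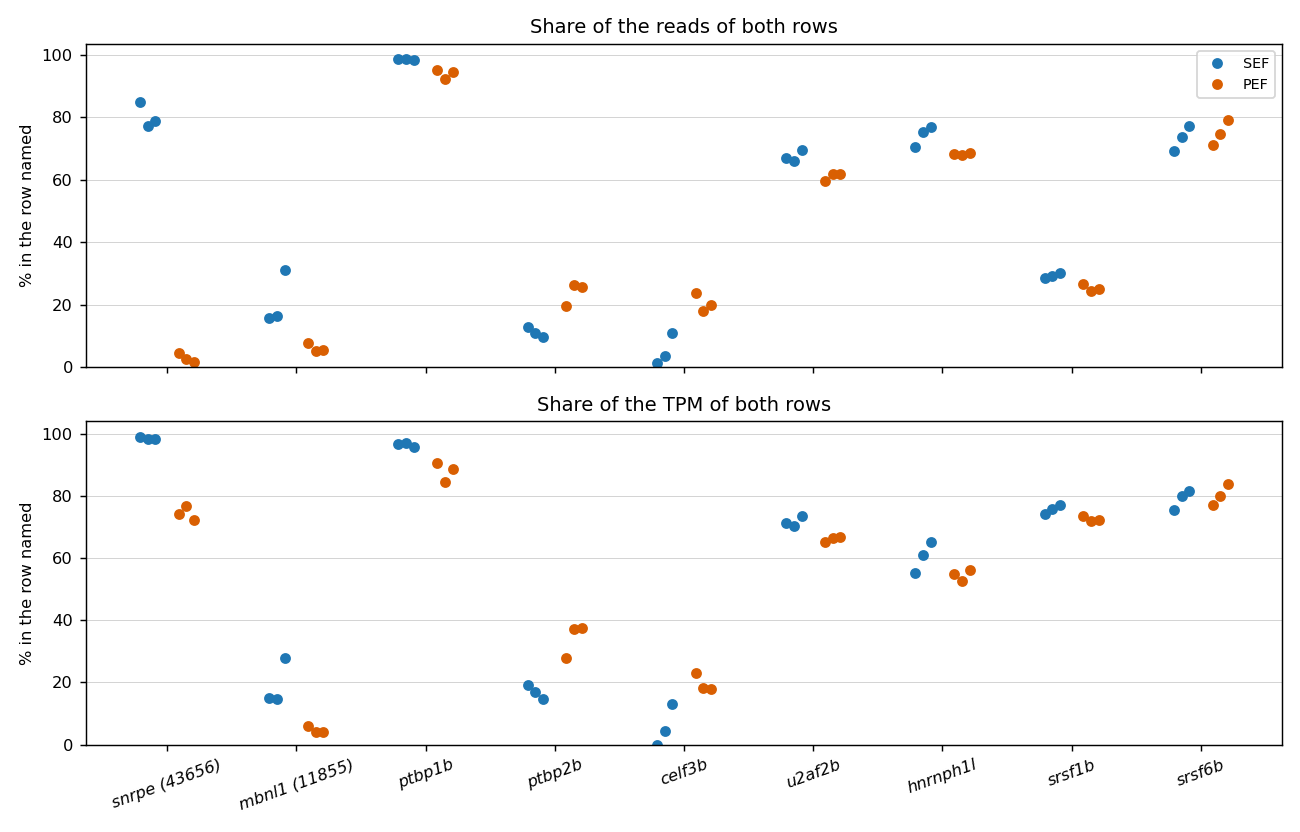
Percentage of the reads (top) and of the TPM (bottom) of a pair of duplicate rows that fell on the row named, in each of the 3 SEF (blue) and 3 PEF (orange) libraries. The share of the *snrpe* row has a mean of 80.2% in SEF and 2.95% in PEF by reads, and of 98.5% and 74.3% by TPM, the *ptbp2b* and *celf3b* shares are larger in PEF in both units, and the *srsf6b* shares overlap.

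Genes of splicing outside the name rule were taken as 6 lists by role, 195 rows in all, of which 184 were tested. Of these, 103 were called (56.0%), a smaller share than the 63.5% of all genes tested. Higher in PEF were 82 (44.6%) and lower 21 (11.4%), with a median log2 fold change of 0.24. Of all genes tested, 30.4% were higher and 33.1% lower, and of genes with at least 10 TPM 34.2% and 29.3%. The excess of higher over lower calls was seen here as well, in lists chosen with earlier results of these data known. Of the SR protein kinases and SR-like proteins, 11 of 18 were higher and 0 lower by edgeR, with 0 lower at an unadjusted p under 0.05, 0 by DESeq2 and 1, *RSRC1*, by limma on log2(TPM + 1). Of the other snRNP proteins, 9 of 28 were higher and 3 lower. Of the helicases and step factors, 19 of 53 were higher and 4 lower, and of the exon junction complex and its partners, 5 of 10 were higher and 0 lower by edgeR. There, 1 gene, *sap18*, was lower at an unadjusted p under 0.05 and was called lower in 7 of 15 alternatives, DESeq2 among them. The snRNP assembly genes went against this, with 4 of 15 higher and 6 lower. The SMN complex gene *gemin4* was at 2.47, 2.94 and 4.39 TPM in SEF and 1.41, 1.01 and 1.5 TPM in PEF (log2 fold change −1.28 ± 0.27, edgeR adjusted p = 0.00512), and *WDR77* of the methylosome at 19.9, 23.6 and 20.4 TPM in SEF and 9.61, 9.29 and 9.32 TPM in PEF (log2 fold change −1.03 ± 0.09, edgeR adjusted p = 9.17e-05), while *smn1* was at 42.0, 46.5 and 45.8 TPM in SEF and 72.2, 65.7 and 76.2 TPM in PEF (log2 fold change 0.77 ± 0.09, edgeR adjusted p = 0.000338). Members of one assembly pathway were thus apart in both directions.

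The genes described next had the 4 largest called rises and the 4 largest called falls among these other genes. They were picked by the size of their change, so wide changes and separate libraries follow from the choice. In addition, *srrm4*, *ralyl*, *a1cf*, *elavl2*, *RBM20* and *qkib* passed the read filter only through the line where they were high. *srrm4* (ENSAMXG00000038719), which in mammals drives the use of neuronal microexons, had 0, 0 and 1 reads in SEF and 36, 74 and 56 reads in PEF, at least 18.2-fold higher in PEF. *ralyl*, a relative of hnRNP C, had 1, 2 and 0 reads in SEF and 53, 49 and 48 reads in PEF, at least 16.7-fold higher by reads. The log2 ratio of its mean TPM was 3.18, a smaller change than this bound, so the size of its change is uncertain. *rbm24a*, known for splicing in heart and skeletal muscle, measured 1.11, 2.02 and 0.99 TPM in SEF and 13.7, 24.4 and 22.9 TPM in PEF (log2 fold change 4.09 ± 0.25, edgeR adjusted p = 1.65e-05). In each of these genes, all PEF libraries lay far above all SEF libraries. *a1cf*, a cofactor of mRNA editing and not chiefly a splicing factor, had 8, 18 and 6 reads in SEF and 71, 226 and 219 reads in PEF. It measured 0.16, 0.39 and 0.08 TPM in SEF and 1.84, 4.96 and 4.99 TPM in PEF (log2 fold change 3.99 ± 0.55). In the other direction, the neuronal *elavl2* had 15, 34 and 17 reads in SEF and 0, 0 and 0 reads in PEF, at least 7.14-fold lower, and *RBM20*, which splices titin in the heart of mammals, had 19, 26 and 20 reads in SEF and 0, 0 and 1 reads in PEF, at least 7.14-fold lower. *qkib*, a Quaking gene, had 17, 24 and 35 reads in SEF and 4, 0 and 2 reads in PEF. It measured 0.56, 1.11 and 1.05 TPM in SEF and 0.24, 0 and 0.10 TPM in PEF (log2 fold change −3.56 ± 0.67, edgeR adjusted p = 0.00274). *raver1*, a partner of PTB, measured 2.51, 2.64 and 2.74 TPM in SEF and 0.32, 0.47 and 0.74 TPM in PEF (log2 fold change −2.30 ± 0.40, edgeR adjusted p = 0.00181). Among the more abundant genes, and chosen after their values were seen, *srpk1a*, a kinase of SR proteins, measured 6.54, 5.91 and 5.25 TPM in SEF and 34.6, 35.2 and 35.7 TPM in PEF (log2 fold change 2.66 ± 0.12, edgeR adjusted p = 4.36e-06) and *fus* 6.12, 4.09 and 4.10 TPM in SEF and 54.2, 33.8 and 30.4 TPM in PEF (3.08 ± 0.26, edgeR adjusted p = 6.25e-05). In both, all PEF libraries lay far above all SEF libraries.

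The genes of some chromosomes had medians away from 0, so the members' places were looked up by gene symbol in the RefSeq assembly AstMex3_surface, which may not be the build behind the files. It placed 82 members, and rows that share a name could only be given the same place. The chromosome that carries *ddb2*, with a median log2 fold change of 0.58 over 398 tested genes, holds *HNRNPUL1*, *prpf18*, *sf3b3*, *snrpa* and *snrpd2*, of which 4 were higher in PEF. The chromosome of *polb*, with a median of 0.34, holds *hnrnpk* and *sf3a1*, both higher. The chromosome of *atr*, with a median of −0.39, holds *hnrnpl2*, *sf3a2* and the symbol *mbnl1*. Both rows of that name were given its place, and the lookup cannot tell which of them lies there. Of these 4 rows, 2 were lower. The chromosome of *msh3*, with a median of 0.76, holds no member. The other 68 placed and tested members had 37 higher and 8 lower calls and a median log2 fold change of 0.30, beside −0.04 for the other placed genes. The median of the members away from these chromosomes was the same, to 2 decimals, as that of all tested members. Most members are in both medians, so these could differ little. The part of chromosome-wide changes in the members' levels was not tested.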

How the data were processed

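RNA of the embryonic fibroblast lines SEF and PEF was sequenced with a stranded mRNA kit as 3 libraries of each line, and libraries were grouped by the line their labels name. The authors deposited read counts per gene, not normalized, and TPM values, with STAR 2.7.3a and RSEM named in the submitters' processing notes. Reads on no gene made up 29.3% to 31.7% of a library and stayed out of all tests. Genome, annotation and strand setting for these libraries are not given in the sources used here. Counts were tested in R 4.3.3 with edgeR 4.0.16 (TMM, filterByExpr, quasi-likelihood, Benjamini-Hochberg) over all genes, and standard errors were taken from the F statistic. TPM served for levels. The tool was tested on simulated data.

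Members were chosen by name, and the members and lists were chosen with earlier results of these data known. Genes named by rule are the tissue-biased members with at least 10 reads in a library, per general family the largest rise, largest fall and highest TPM, uncalled duplicates of called genes, and the 4 largest rises and falls among other splicing genes. The rule also took *prpf4ba* and *srsf1b*, not called (log2 fold change −0.05 ± 0.25 and 0.24 ± 0.12) and not described above. Their duplicates *prpf4bb* and *srsf1a* were higher in PEF (0.43 ± 0.12 and 0.51 ± 0.11, edgeR adjusted p = 0.0185 and 0.00592). The call of *prpf4bb* passed in 7 of 15 alternatives. Other genes named in the results were chosen after their values were seen. The list of snRNP proteins counts *zcchc24*, which is not an established snRNP protein. Alternatives were DESeq2 1.42.0, upper-quartile normalization, 2 other filters, limma 3.58.1 on log2 TPM, a stricter test against 2-fold change, a replicate block and leaving out each library in turn. No sequences of the genes were used here.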

Additional observations from a re-analysis of the deposited data

How the results depend on the processing

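Of the 55 members called, 37 were called in every alternative that tested them except the test against a log2 fold change of 1, and all 55 kept their sign. That stricter test left 11 members (8 higher, 3 lower; 5 general, 4 higher and 1 lower), 18 other splicing genes (13 higher, 5 lower) and 5103 of all genes (1994 higher, 3109 lower). The tissue-biased calls dropped from 8 to 3, with 1 higher, under the filter of 10 reads in every library and under limma on log2(TPM + 1) or log2(TPM + 0.1). There *rbfox1*, *celf3b*, *mbnl3* and *rbfox3a* were not tested and *rbfox2* was tested and not called (adjusted p = 0.0593 by edgeR, 0.0561 and 0.0555 by limma). Higher member calls were 29 with limma at either pseudocount, where 4108 and 4078 of all 14593 genes were higher. Without a filter, lower tissue-biased calls were 5 on counts and 5 by limma, and the class median log2 fold change turned to −0.258 and −0.0414. Leaving out a library gave 38 to 56 member calls, 31 to 45 of them higher and 7 to 11 lower. Over all genes it gave from 9289 calls of 16966 genes to 10968 of 17201. Of these, 4320 to 5185 were higher and 4969 to 5783 lower. For the other splicing genes, leaving out a library gave 81 to 102 calls, 13 (without PEF replicate 2) to 21 of them lower. In all, 17 members lost their call without at least 1 library, and their adjusted p (edgeR, Benjamini-Hochberg) then reached at most 0.153. Replicate numbers did not pair the libraries, with correlations of −0.04, 0.07 and −0.14 between libraries of the same number. With a replicate block, 41 members (33 higher, 8 lower), 35 general, 6 tissue-biased, 94 other splicing genes and 9735 of all genes were called. Members under 1 TPM rest on few reads. All bounds cover counting error only, and the spread between libraries covers 1 line of each population.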
